A study of Mus musculus with 4 samples.

Results

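The Nodal pathway is described here through 10 genes, each found by its symbol in the platform annotation: the ligand Nodal, the co-receptor Tdgf1, the receptors Acvr1b and Acvr2b, the signal carriers Smad2, Smad3 and Foxh1, and the inhibitors Lefty1, Lefty2 and Smad7. Each gene had 1 probe set, so the members are 10 of 41345 probe sets, or 10 of 22180 named genes. They were measured in total RNA of mouse embryonic stem cells that all lacked Prdm14, the gene of a PR domain zinc finger protein of pluripotent and germ cells. All cells were grown in medium with 2 inhibitors and LIF on STO feeder cells, a mouse fibroblast line, so RNA of the feeder cells can be part of each sample. The 4 groups had 1 array each, all on strip 2: cells given both sea urchin proteins, PRDM14 and CBFA2T, cells given sea urchin PRDM14, cells given mouse PRDM14, and cells given an empty vector. CBFA2T belongs to a family of co-repressors that partner PRDM14. The sources used here do not state the vector's promoter, or whether each group was a clone or a pool.

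Nodal is a secreted ligand of the TGF-beta family. It binds receptors made of ACVR2B and ACVR1B together with the membrane-anchored co-receptor TDGF1, also called Cripto, and the receptors phosphorylate SMAD2 and SMAD3, which enter the nucleus and act with the DNA-binding protein FOXH1. Lefty1, Lefty2 and Nodal itself are target genes of the pathway, and the LEFTY proteins block it from outside the cell while SMAD7 blocks it at the receptors. Mouse embryonic stem cells are known to make Nodal and to respond to it, and in the embryo the pathway patterns the epiblast and induces mesoderm and endoderm.

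Single arrays carry no replicate error, so differences were not tested and are given without p-values. A difference is the log2 value of the first-named array minus that of the second, and it was called by size alone, at 2-fold (a log2 difference of 1). Values are RMA values on a log2 scale, and their medians over all probe sets lay between 4.54 and 4.55 on the 4 arrays, so a shift shared by most genes would not show. Genes were kept if at least 1 array showed a value of 4.84 or more, the median over the probe sets with a gene name. Of the 10 members 8 were kept, all of them at or above 4.84 on all 4 arrays, while Acvr1b and Smad3 lay below it on all 4. In all, 12042 genes were kept. The Prdm14 probe set, whose place relative to the deletion and to the introduced sequences is unknown here, gave 5.53 for sea urchin PRDM14 and CBFA2T, 5.77 for sea urchin PRDM14, 5.57 for mouse PRDM14 and 5.71 for the empty vector. The array labelled mouse PRDM14 was thus not above the empty vector in Prdm14, against what its label would give if the probes read the introduced gene. The labels were therefore not checked by this gene, and every group name, and every direction drawn with it, refers to how the array is labelled. Embryonic stem cell markers were present on all 4 arrays, with Nanog between 8.75 and 9.28 and Sox2 between 7.74 and 7.82.

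Tdgf1 was the member that differed most. Its value was 7.58 with sea urchin PRDM14 and CBFA2T, 8.74 with sea urchin PRDM14, 8.42 with mouse PRDM14 and 8.25 with the empty vector. The array with CBFA2T was thus the lowest, by 0.67 to the next, and the array with sea urchin PRDM14 alone the highest. The range of 1.16 on the log2 scale is 2.23-fold, and 28 of the 12042 kept genes, or 0.233%, had a range at least as wide. Across the kept genes the median range was 0.19. Tdgf1 has 2 pseudogenes in RefSeq, Tdgf1-ps1 and Tdgf1-ps2, on chromosomes 16 and 17, while Tdgf1 itself is on chromosome 9. Whether the probe set also reads them was not tested.

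The promoter of Tdgf1 is shown because this gene carries the largest difference and because the pathway's own DNA-binding proteins have known motifs. The window runs from 250 bases before to 50 after the start of the gene, chr9:110946109-110946408 in GRCm38.p6, minus strand, from RefSeq. Capitals mark matches to the 3 motifs below.

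Tdgf1 promoter: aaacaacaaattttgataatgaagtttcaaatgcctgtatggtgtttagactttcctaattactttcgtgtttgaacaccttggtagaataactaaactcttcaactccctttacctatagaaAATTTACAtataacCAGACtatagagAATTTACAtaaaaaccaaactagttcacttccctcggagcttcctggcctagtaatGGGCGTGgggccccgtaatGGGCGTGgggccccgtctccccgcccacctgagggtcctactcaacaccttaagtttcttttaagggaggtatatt

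The first motif was AATNNACA, a loose form of the FOXH1 site, searched on both strands. It occurred 2 times in the Tdgf1 window, 127 and 101 bases before the start, in the form AATTTACA both times. At least 1 match was held by 12.2% of 32851 RefSeq promoter windows of 300 bases, and at least 2 by 1.43%. The narrower form with A or C at both spacer bases, the form usually given for FOXH1, had 0 matches in the Tdgf1 window and occurred in 4.40% of windows. The second motif was CAGAC, part of the SMAD binding element, which lay 113 bases before the start, between the AATNNACA matches. It is common, in 49.6% of windows, and both motifs together were held by 5.91%. The third, GGGCGTG, is a GC-rich motif bound by KLF-type zinc finger proteins and was searched after the sequence had been seen. It occurred 2 times, 45 and 26 bases before the start, inside a direct repeat of 19 bases. At least 1 match to it was held by 8.44% of windows, and at least 2 by 1.39%. These matches do not overlap one another. A match is a description of letters and not a binding site.

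Windows of 5 of the 10 members were searched: Tdgf1, Nodal, Acvr1b, Acvr2b and Smad3. In the windows of Nodal, Acvr1b and Smad3 there were 0 matches to the 3 motifs, and in that of Acvr2b there was 1, to CAGAC. For Lefty1, Lefty2 and Foxh1 no window of 300 bases was found. Windows on chromosome 18, where Smad2 and Smad7 lie, were left out of this search, so their promoters are not described.

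**Figure D1:**
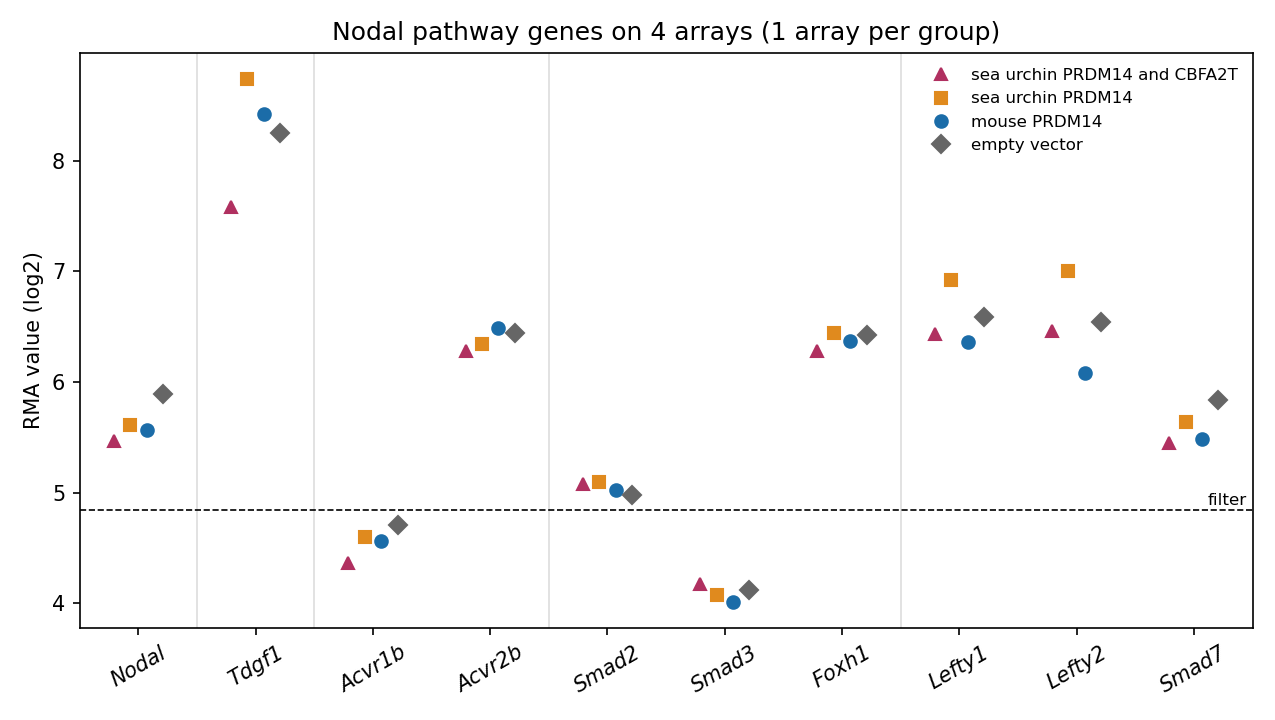
RMA value on a log2 scale (vertical axis) of each of the 10 genes on the 4 arrays, with 1 point per array and the genes ordered by role. The dashed line is the filter value of 4.84, and Tdgf1 spans the widest range, between 7.58 with sea urchin PRDM14 and CBFA2T and 8.74 with sea urchin PRDM14.

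The ligand gene Nodal, on chromosome 10, differed less. Its values were 5.47 with sea urchin PRDM14 and CBFA2T, 5.61 with sea urchin PRDM14, 5.57 with mouse PRDM14 and 5.89 with the empty vector. The empty vector array was thus the highest, 0.28 above the next, and the 3 PRDM14 arrays lay within 0.14 of one another. Its range of 0.42 was reached by 6.41% of kept genes.

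Of the receptors, Acvr2b (chromosome 9), the type II receptor gene, had values of 6.28 with sea urchin PRDM14 and CBFA2T, 6.34 with sea urchin PRDM14, 6.48 with mouse PRDM14 and 6.45 with the empty vector. The range of 0.20 is close to the median range of 0.19 over kept genes. Acvr1b (chromosome 15), the type I receptor gene, had values of 4.37 with sea urchin PRDM14 and CBFA2T, 4.60 with sea urchin PRDM14, 4.57 with mouse PRDM14 and 4.70 with the empty vector. It was lowest with CBFA2T, but all of its values were dim, where background pulls a fold toward 1.

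The signal carriers hardly differed. Smad2 (chromosome 18) was at 5.08 with sea urchin PRDM14 and CBFA2T, 5.10 with sea urchin PRDM14, 5.03 with mouse PRDM14 and 4.98 with the empty vector. Its range of 0.12 was exceeded or met by 78.1% of kept genes. Smad3 (chromosome 9) was dim throughout, at 4.17 with sea urchin PRDM14 and CBFA2T, 4.08 with sea urchin PRDM14, 4.01 with mouse PRDM14 and 4.12 with the empty vector. Foxh1 (chromosome 15), the gene of the forkhead partner of the SMAD proteins, was at 6.28 with sea urchin PRDM14 and CBFA2T, 6.44 with sea urchin PRDM14, 6.37 with mouse PRDM14 and 6.43 with the empty vector. Its range was 0.16, which 62.3% of kept genes met. The ranges of these 3 genes lay below the median range of kept genes, so the order of their arrays is not read here.

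The inhibitor genes Lefty1 and Lefty2, closely similar copies on chromosome 1, had like profiles. Lefty1 was at 6.43 with sea urchin PRDM14 and CBFA2T, 6.92 with sea urchin PRDM14, 6.36 with mouse PRDM14 and 6.59 with the empty vector. Lefty2 was at 6.46 with sea urchin PRDM14 and CBFA2T, 7.00 with sea urchin PRDM14, 6.08 with mouse PRDM14 and 6.54 with the empty vector. In both genes the order was the same: sea urchin PRDM14 highest, then the empty vector, then sea urchin PRDM14 and CBFA2T, then mouse PRDM14. The gap between the middle arrays was small, 0.16 in Lefty1 and 0.08 in Lefty2. Ranges were 0.56 for Lefty1, met by 2.16% of kept genes, and 0.93 for Lefty2, met by 0.424%. The probe sequences were not used here, so signal of one gene in the probe set of the other cannot be told apart from its own, and the pair may not be independent measurements.

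Smad7 (chromosome 18), the intracellular inhibitor gene, did not follow the Lefty genes. It was at 5.45 with sea urchin PRDM14 and CBFA2T, 5.64 with sea urchin PRDM14, 5.49 with mouse PRDM14 and 5.84 with the empty vector. The empty vector array was its highest, as in Nodal and Acvr1b. The order of the other arrays rests on gaps as small as 0.04 in Smad7, 0.05 in Nodal and 0.03 in Acvr1b, so it is not read here. The range of Smad7 was 0.39, and 8.89% of kept genes had a range at least as wide.

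**Figure D2:**
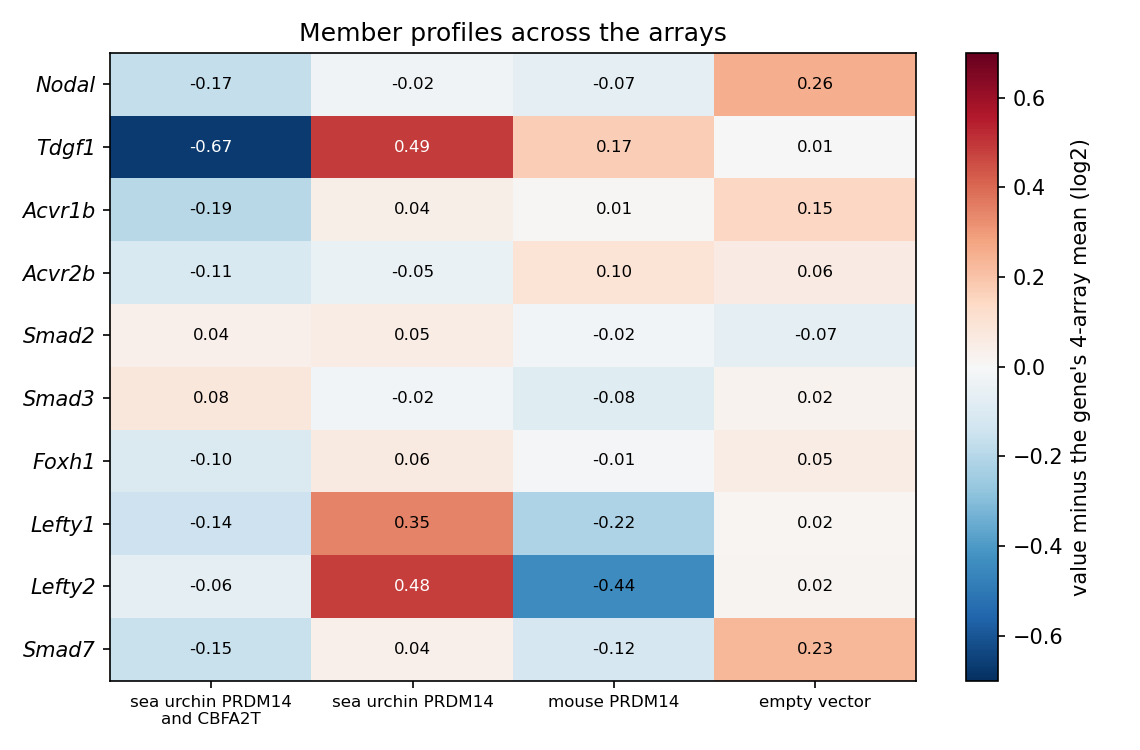
Log2 value minus the gene's own mean over the 4 arrays, for each of the 10 genes (rows) and each array (columns), with blue below and red above the mean. Tdgf1 lies at -0.67 with sea urchin PRDM14 and CBFA2T and at 0.49 with sea urchin PRDM14, and Lefty2 at 0.48 with sea urchin PRDM14 and -0.44 with mouse PRDM14.

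Adding CBFA2T to sea urchin PRDM14 asks what the sea urchin partner contributes. Tdgf1 was at 7.58 with CBFA2T and 8.74 without, a difference of -1.16, so that the level with CBFA2T was 44.8% of that without. Of the 12042 kept genes, 3 were at least as low in this comparison, Tdgf1 included. Tdgf1 was the 1 member past 2-fold, beside 0.183% of all kept genes, and also the 1 member past 1.5-fold, beside 0.515%. The extracellular inhibitor genes came next. Lefty2 was at 6.46 with CBFA2T and 7.00 without (-0.54), and Lefty1 at 6.43 with CBFA2T and 6.92 without (-0.49), with 0.664% and 0.930% of kept genes at least as far apart in either direction. The other differences lay between -0.24 for Acvr1b and 0.10 for Smad3. In all 9 of 10 members were below 0, with a median of -0.18 over the 10 and over the 8 kept, against -0.0001 over all kept genes.

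Markers of other cell states differed between the same arrays. Of 8 measured 2-cell-like genes, which mark rare cells resembling the 2-cell embryo, Zscan4e differed by 4.58, Zscan4d by 2.33, Zscan4c by 1.91 and Usp17le by 1.57 between the array with CBFA2T and that without. Of these 4, all but Zscan4c were kept through the CBFA2T array alone. Tcstv3 (0.88), Tcstv1 (0.27), Tdpoz4 (-0.04) and Zfp352 (-0.05) were not past 2-fold and were dim on all 4 arrays. The log2 values of the 8 summed to 41.6 with CBFA2T, 30.2 with sea urchin PRDM14 alone, 30.5 with mouse PRDM14 and 30.05 with the empty vector. Of 10 kept fibroblast markers of 14 measured, 3 were above 0 and the median was -0.08, with sums of log2 values between 60.1 and 61.0 on the 4 arrays. Fn1, the fibronectin gene among them, was at 7.30 with CBFA2T and 7.86 without. Col1a1 went the other way, at 5.99 with CBFA2T and 5.71 without. Postn, Lox, Dcn and Thbs1 were dim on all 4 arrays, at 3.57 to 4.25. Of the 12 stem cell markers 7 were above 0, with a median of 0.03; Nanog was higher by 0.52 and Utf1 differed by -0.43. The 6 kept of 9 primitive endoderm markers had a median of -0.06. The part of these genes' cells in the Tdgf1 and Lefty values was not tested, and fewer cells that express a gene cannot be told apart from less RNA per cell.

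Against the empty vector, sea urchin PRDM14 with CBFA2T also had the lower Tdgf1, at 7.58 with PRDM14 and CBFA2T and 8.25 with the empty vector. The difference of -0.67 is 1.59-fold and not past 2-fold, and 22 kept genes were at least as low. No member was past 2-fold, beside 0.208% of kept genes, and Tdgf1 was the 1 past 1.5-fold, beside 0.822%. Nodal (-0.42), Smad7 (-0.39) and Acvr1b (-0.34) followed, with 2.49%, 3.51% and 5.20% of kept genes at least as far apart. Lefty1 (-0.16) and Lefty2 (-0.08) lay close to the empty vector, unlike in the comparison with sea urchin PRDM14 alone. Smad2 (0.11) and Smad3 (0.05) were the members above 0, while 48.4% of all kept genes were below 0. The median over the 10 and over the 8 kept was -0.16, against 0.005 over all kept genes.

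The array with sea urchin PRDM14 alone asks whether an orthologue from a distant animal acts in these cells. Tdgf1 was at 8.74 with sea urchin PRDM14 and 8.25 with the empty vector, a difference of 0.48 or 1.40-fold that 1.01% of kept genes met in either direction. Lefty2 was at 7.00 with sea urchin PRDM14 and 6.54 with the empty vector (0.46), and Lefty1 at 6.92 with sea urchin PRDM14 and 6.59 with the empty vector (0.33). Nodal (-0.28) and Smad7 (-0.19) lay on the other side of 0. The co-receptor gene and the genes of the extracellular inhibitors were thus higher and the ligand gene lower, none of them past 2-fold or 1.5-fold. Among kept genes 0.0332% passed 2-fold and 0.498% passed 1.5-fold. Over all 10 members 5 were above and 5 below 0, while 48.4% of all kept genes were below 0. The median was -0.02 over the 10 and 0.07 over the 8 kept, so the members as a group had no settled direction. The median over all kept genes was 0.006.

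The array labelled mouse PRDM14 against the empty vector asks what the protein of the same species does, and the difference in its Prdm14 value from that of the empty vector was -0.14. The Lefty genes lay on the other side from where they lay with sea urchin PRDM14. Lefty2 was at 6.08 on the array labelled mouse PRDM14 and 6.54 with the empty vector (-0.46, met by 1.02% of kept genes), and Lefty1 at 6.36 with mouse PRDM14 and 6.59 with the empty vector (-0.23). Smad7 (-0.35) and Nodal (-0.33) were lower too, with 3.17% and 4.12% of kept genes at least as far apart. Tdgf1 was higher by 0.17, which 23.4% of kept genes met. No member was past 2-fold or 1.5-fold, and over kept genes 0.083% and 0.457% were. Of the 10 members 7 were below 0, beside 51.5% of all kept genes. The median was -0.12 over the 10 and -0.15 over the 8 kept, against -0.005 over all kept genes. These 3 comparisons share the empty vector array, so a value that is high or low there by chance moves all 3 together. Nodal and Smad7, whose empty vector values were their highest, were below 0 in each. The array with sea urchin PRDM14 alone likewise enters 3 of the 6 comparisons. It was the highest array for 5 members (Tdgf1, Smad2, Foxh1, Lefty1 and Lefty2) and the lowest for 0. The differences that involve it are therefore not separate observations.

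**Figure D3:**
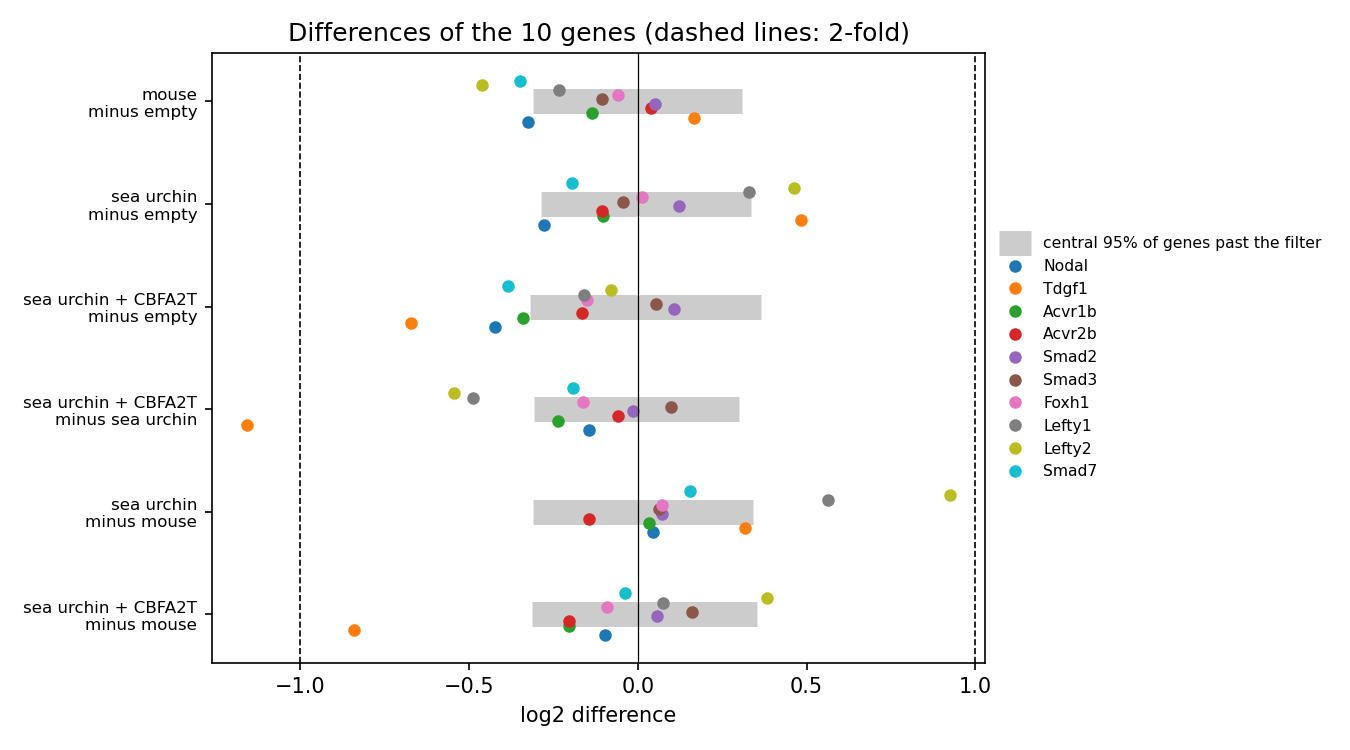
Log2 difference (horizontal axis) of each of the 10 genes in each of the 6 comparisons (rows), with grey bars for the central 95% of the 12042 kept genes and dashed lines at 2-fold. Tdgf1 passes the left line at -1.16 for CBFA2T added to sea urchin PRDM14, and Lefty2 lies at 0.93 for sea urchin against mouse PRDM14.

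Setting the array with sea urchin PRDM14 against the one labelled mouse PRDM14 gave the largest Lefty differences of the 6 comparisons. The mouse PRDM14 label was not checked by the Prdm14 value, since what that probe set reads is unknown here. Lefty2 was at 7.00 with sea urchin PRDM14 and 6.08 with mouse PRDM14, a difference of 0.93 or 1.90-fold, just short of 2-fold. There were 7 kept genes, Lefty2 included, at least as high in this comparison. Lefty1 was at 6.92 with sea urchin PRDM14 and 6.36 with mouse PRDM14, a difference of 0.56 that 0.631% of kept genes met in either direction. Tdgf1 was higher by 0.32, met by 5.51%. No member passed 2-fold, beside 0.0581% of kept genes, and 1, Lefty2, passed 1.5-fold, beside 0.515%. Of the 10 members 9 were above 0, most of them by little, while 46.5% of all kept genes were below 0. The median was 0.07 over the 10 and 0.11 over the 8 kept, against 0.01 over all kept genes. The stem cell markers lay lower in the same comparison, with 3 of 12 above 0 and a median of -0.19, and the primitive endoderm markers higher, with 5 of 6 kept above 0 and a median of 0.16. The part of these cell states in the Lefty values was not tested.

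With CBFA2T present, the array with the sea urchin proteins had a Tdgf1 of 7.58, against 8.42 on the array labelled mouse PRDM14, a difference of -0.84 or 1.79-fold. Of the kept genes 12 were at least as low. Lefty2 stayed higher than with mouse PRDM14, at 6.46 with the sea urchin proteins and 6.08 with mouse PRDM14 (0.38), while Lefty1 differed by 0.07. No member passed 2-fold, beside 0.183% of kept genes, and Tdgf1 was the 1 past 1.5-fold, beside 0.739%. The median over the 10 and over the 8 kept was -0.06, against 0.01 over all kept genes. Of the 10 members 4 were above and 6 below 0, while 47.0% of all kept genes were below 0.

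Genes with a profile like that of a member were sought for the members whose range reached 1.5-fold, Tdgf1 and Lefty2, among 10866 kept genes. Likeness was the root mean square distance, on the log2 scale, between profiles centred on their own mean over the 4 arrays. Nearest to Tdgf1 were Ubr7 (distance 0.19), Fads1 (0.20), Zfp955b (0.20), Lhpp (0.21) and Olfr1158 (0.22). These distances are not small beside the 0.42 by which Tdgf1 itself varied around its mean. Nearest to Lefty2 were Atad1 (0.03), Rrp7a (0.07), Olig2 (0.11), Maco1 (0.11) and BC049762 (0.12), beside a spread of 0.33 in Lefty2. Lefty1 lay at 0.14 from Lefty2 and, of the kept members, was also the one nearest to Tdgf1, at 0.33. With 4 arrays many genes share a profile.

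**Figure D4:**
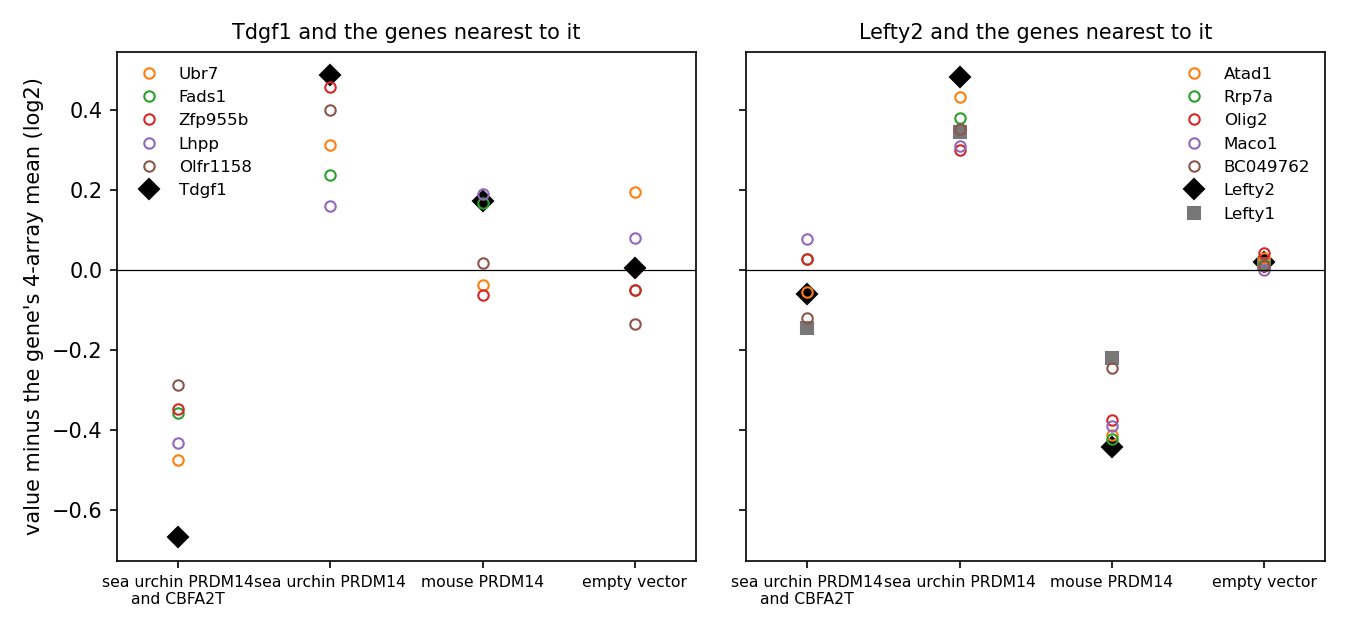
Log2 value minus the gene's own mean over the 4 arrays, with Tdgf1 (left) and Lefty2 (right) as filled diamonds, Lefty1 as filled squares and the 5 nearest genes as open circles. Atad1 follows Lefty2 at a distance of 0.03, while the genes nearest to Tdgf1 are 0.19 to 0.22 away.

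The kept genes of the rest of the pathway differed little. Of 36 further genes listed (ligands and their convertases, receptors, SMAD partners, inhibitors and mesendoderm targets), 32 had a probe set of their own and 25 were kept. None of the 25 was past 2-fold or 1.5-fold in any of the 6 comparisons, and their differences lay between -0.38 and 0.33, both ends in comparisons with mouse PRDM14. The lowest was Pmepa1, a feedback inhibitor gene of the TGF-beta pathway, with sea urchin PRDM14 and CBFA2T, and the highest was Nomo1, which encodes a Nodal antagonist, with sea urchin PRDM14. For CBFA2T added to sea urchin PRDM14, 12 of the 25 were above 0 and the median was -0.01. The related ligand gene Gdf3 stayed between 6.46 and 6.56 and the shared partner gene Smad4 between 6.01 and 6.11. Skil, a feedback inhibitor gene of SMAD signalling, was dim on all 4 arrays and not kept. Its values were 4.14 with sea urchin PRDM14 and CBFA2T, 4.56 with sea urchin PRDM14, 3.99 with mouse PRDM14 and 4.17 with the empty vector. Its difference of 0.57 between sea urchin and mouse PRDM14 lay outside the range of the 25. Skil was highest on the array where the Lefty genes were highest, but other inhibitor genes were not. Smad7 was highest with the empty vector (5.84). Pmepa1 was highest with mouse PRDM14, at 6.09, against 6.01 with sea urchin PRDM14. The mesendoderm targets Eomes, Mixl1, Gsc, Foxa2, Sox17 and Lhx1 differed by at most 0.28 in any comparison. Pmepa1, Nomo1, Gdf3, Smad4, Skil and these targets were picked after their values were seen. Gdf1 and Dand5 share their probe sets with other genes, and the other listed genes without a probe set of their own were not analysed here.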

How the data were processed

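The deposited table holds log2 values. Per the submitters' processing notes the authors used RMA, a method that corrects background, equalises the distributions of the arrays and gives 1 value per probe set. The sources used here do not state its version, the genome build or which arrays were normalized together, and no detection call or depth comes with such values. The number of arrays limits the precision. Of 41345 probe sets, 23521 were annotated with 1 gene, 1814 with several and 16010 with none; 0 of those with several held a member. RefSeq identifiers (GRCm38.p6) were found for all 10 members. A gene's value was its probe set with the highest mean. The 6 differences, the 2-fold threshold, the gene lists and the naming rule (all members; other pathway genes past 1.5-fold; the 5 nearest profiles, without predicted genes, Rik clones and small RNAs) were set, and the members chosen, with earlier results of these data known. Differences were also checked on simulated data. The alternatives tried were a 1.5-fold threshold, no filter, a filter at the 75th percentile (5.65), cyclic loess, centring on housekeeping genes and the mean of all probe sets. Loess was run with limma 3.58.1 in R 4.3.3, and all else in Python 3.11.15 with pandas 2.3.3, numpy 2.4.6 and matplotlib 3.10.9.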

Additional observations from a re-analysis of the deposited data

How the results depend on the processing

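No paired analysis was possible because each group had 1 array. Tdgf1 stayed past 2-fold for CBFA2T added to sea urchin PRDM14 under cyclic loess (-1.14) and under centring on housekeeping genes (-1.18). At 1.5-fold, 1 member was called for sea urchin PRDM14 and CBFA2T against the empty vector, 1 for sea urchin against mouse PRDM14 and 1 for sea urchin PRDM14 and CBFA2T against mouse PRDM14, where 2-fold called 0. Cyclic loess changed the sign of 0 of the 60 member differences. The mean of all probe sets could not change a member's value, since each member had 1 probe set.

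Centring each array on the median of the housekeeping list shifted all genes by 0.23 for mouse PRDM14 against the empty vector and by up to 0.14 in the other comparisons. It changed the sign of 14 of the 60 differences, none over 0.14 in size before. With it, mouse PRDM14 against the empty vector gave a median of 0.081 over the kept members, against a shift of all genes of 0.23, and a Tdgf1 difference of 0.40. Lefty1 was then at -0.007 and Lefty2 at -0.24 in that comparison. The sign of Lefty2 turned for sea urchin PRDM14 and CBFA2T against the empty vector (0.008) and that of Lefty1 against mouse PRDM14 (-0.06). For sea urchin PRDM14 alone against mouse PRDM14, Nodal, Acvr1b, Smad2, Smad3 and Foxh1 turned below 0. The median over the kept members was then -0.005, with a shift of all genes of -0.12. This centring rests on the middle gene of the list. Centring on the median of each housekeeping gene's own deviation, chosen after seeing the data, shifted genes by at most 0.06 and changed the sign of 1 difference, Smad7 with CBFA2T against mouse PRDM14 (0.011). Dim values limit what can be said of Acvr1b and Smad3.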
